A study of Homo sapiens with 6 samples.

Results

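The doublecortin-like kinases DCLK1, DCLK2 and DCLK3 and their relative DCDC2 were examined by RNA-seq in HCT116, an established human colorectal carcinoma cell line. These 4 of the 20020 genes in the table were taken by their symbols. The group was chosen by the counts of DCLK1 in the comparison described here, so the members' values are a description and no p is given for them. The comparison was between CAD-KO and sgVec cells, both irradiated (+IR), with 3 libraries of each. CAD here is caspase-activated DNase, the product of DFFB. Its knockout cells were made with a guide RNA against that gene in a CRISPR-Cas9 vector, and sgVec is the vector control. The dose of 8 Gy and the time of 24 h after irradiation come from the legend of the study's volcano plot and the guide, CAD-KO2, from the legend of its gene set plot. All 6 libraries were irradiated, 1 knockout line was sequenced, and the sources used here do not say whether it is a clone or a pool. What follows from the loss of CAD therefore cannot be told apart from what differs between the lines for other reasons. The labels do not say that the libraries of a group came from separate cultures, so a p-value measures only the spread between these libraries. Runs of 3 values are in the order of replicates 1 to 3.

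Doublecortin domains bind microtubules and stabilize them, and mutations in the founding gene, DCX, disturb the migration of neurons. DCLK1 and DCLK2 join a pair of such domains to a serine/threonine kinase domain that resembles those of the calmodulin-dependent (CaM) kinases. DCLK3 is best known for its kinase domain, and DCDC2 has doublecortin domains but no kinase and is a protein of cilia. In the gut DCLK1 is a widely used marker of tuft cells, the chemosensory cells of the epithelium, and it has been studied as a marker of stem-like cells in colorectal tumours. It is transcribed from an upstream promoter, which gives long forms with both parts, and from an internal promoter, which gives short forms with the kinase part only.

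DCLK1 lies on the reverse strand of chromosome 13 of GRCh38, from 35768652 to 36131306, over 363 kb. In GENCODE release 29 it has 8 transcripts, of which 5 are coding, from 3 start sites. The longest coding form starts at 36131306 and codes for 740 amino acids, and a short form that starts at 35855861 codes for 422. The deposited counts add up reads over all transcripts of a gene, so long and short forms were not separated. The sequences upstream of both kinds of start are shown because either could have given the reads. They are from RefSeq on GRCh38.p14, on the reverse strand, 5′ to 3′, with CG pairs in capitals and ending before the start of the form named. Each stretch lies downstream of a further annotated start of DCLK1, so transcripts from there can run through it.
DCLK1 long form, chr13:36131383-36131632: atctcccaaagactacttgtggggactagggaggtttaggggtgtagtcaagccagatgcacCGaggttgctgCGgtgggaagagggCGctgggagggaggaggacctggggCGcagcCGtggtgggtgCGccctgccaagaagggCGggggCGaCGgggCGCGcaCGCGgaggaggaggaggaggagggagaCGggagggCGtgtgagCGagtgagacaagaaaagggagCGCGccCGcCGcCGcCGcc
DCLK1 short form, chr13:35855862-35855917: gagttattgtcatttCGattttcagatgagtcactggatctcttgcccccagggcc
The long-form stretch holds 22 CG pairs in 250 bases. The internal stretch holds 1 in 56 bases. Over windows from 250 bases before to 50 after the RefSeq start, the long-form promoter had 27 CG pairs and the internal one 5, beside a median of 14 over 35116 such windows. A further RefSeq start of DCLK1, more upstream, had 2 CG pairs in its window.
The guide of the knockout line is shown because it defines the groups.
CAD-KO2 guide: gtgcctgtacgaggatggca
Its 20 bases, followed by NGG, were matched on both strands to the GENCODE transcripts. The best match in DFFB had 0 mismatches, and the best match in the DCLK1 transcripts and promoter windows had 8. Introns were not searched.

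The libraries held 14032994 to 19574144 counts on genes, and each CAD-KO+IR library was deeper than each sgVec+IR library. DFFB, the targeted gene, was counted 185, 192 and 217 times in CAD-KO+IR and 357, 335 and 297 times in sgVec+IR. Every CAD-KO+IR library was below every sgVec+IR library, and the log2 fold change was −1.02 ± 0.193 (SE, standard error) with an edgeR adjusted p of 0.550, above the threshold of 0.05. DESeq2 (−1.01, adjusted p 0.00187) and limma-voom with sample weights (−0.92, adjusted p 0.000135) called DFFB. Library sgVec+IR replicate 3 stood apart from the other 5. It had 7561 genes without a count, against 4577 to 5232 in the others, and its correlation of log2 CPM with them across genes was 0.886 to 0.927. Of the other libraries CAD-KO+IR replicate 2 differed most from the rest, with a chi-square per degree of freedom over genes of 50.9 to 84.0 against the remaining 4, which were at 2.58 to 14.6 among themselves. DCLK1, DCLK2 and DCDC2 are given with and without the libraries that move them. Of 11 epithelial markers 9 were tested, of which 2 were higher and 7 lower in CAD-KO+IR and 0 were called by edgeR, with a median log2 fold change of −0.06. The most abundant was KRT8, a keratin of simple epithelia, at 1748 ± 389 CPM in CAD-KO+IR and 1516 ± 665 CPM in sgVec+IR (SD, n = 3 each). CDH1, the epithelial cadherin, was lower in every CAD-KO+IR library, at 66.7 ± 2.95 against 97.0 ± 2.89 CPM (SD, n = 3 each). Its log2 fold change was −0.54 ± 0.146 (SE) and its edgeR adjusted p was 1, and limma-voom with sample weights called it (−0.61, adjusted p 4.61e-05). CDX1, a further intestinal marker of that list, had no count in any library. Among leukocyte markers PTPRC, the pan-leukocyte gene, had 3 counts in 1 library and 0 in the others.

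DCLK1 was detected at a low level in CAD-KO+IR and was close to the counting limit in sgVec+IR. It was counted 119, 128 and 125 times in CAD-KO+IR. In sgVec+IR it was counted 6, 2 and 12 times. The groups did not overlap, and the highest control was the library that stood apart. In bulk RNA, fewer cells with a transcript and less RNA per cell cannot be told apart. Scaled by TMM-adjusted library size (CPM), the values were 6.45, 6.75 and 7.11 in CAD-KO+IR and 0.367, 0.137 and 0.846 in sgVec+IR. The 3 knockout values lay close together at 6.77 ± 0.335 CPM (SD, n = 3), and the controls scattered more relative to their mean, at 0.450 ± 0.362 CPM (SD, n = 3).
The fitted log2 fold change of DCLK1, CAD-KO+IR over sgVec+IR, was 3.91 ± 0.453 (SE), which is a fold of 15.0. From the summed counts, 372 against 20, the ratio per unit of depth was 15.3, with an exact 95% binomial interval from 9.75 to 25.3 that covers counting error only. Without sgVec+IR replicate 3 the fold rose to 25.6 (log2 fold change 4.68), and without sgVec+IR replicate 2, the lowest control, it was 11.4 (3.51). Among the 12925 genes tested, ordered by fitted log2 fold change, DCLK1 was number 4 from the top.
A gene was called when the adjusted p was under 0.05 and the fold at least 1.5. These are the thresholds of the study's methods, which applied them with DESeq2 and not with edgeR. By edgeR 4 genes (0.0309% of those tested) passed, PRKAA2 as higher (0.00774%) and CSMD3, CELF2 and TENM3 as lower in CAD-KO+IR (0.0232%). None of the 4 members was among them, and 2, DCLK1 and DCLK2, had enough counts to enter the fit. DCLK1 was among the genes higher in CAD-KO+IR that DESeq2 called (20 genes, 0.12% of the 16728 with an adjusted p), among those of edgeR without sgVec+IR replicate 3 (11 genes, 0.0837%), and among those of limma-voom with sample weights (212 genes, 1.64%). Since the same contrast chose DCLK1, these calls are no independent test, and nothing is read from the shares. Groups that do not overlap, with CAD-KO+IR higher, occurred in 5.23% of the genes tested, and in either direction in 10.3%.

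**Figure D1:**
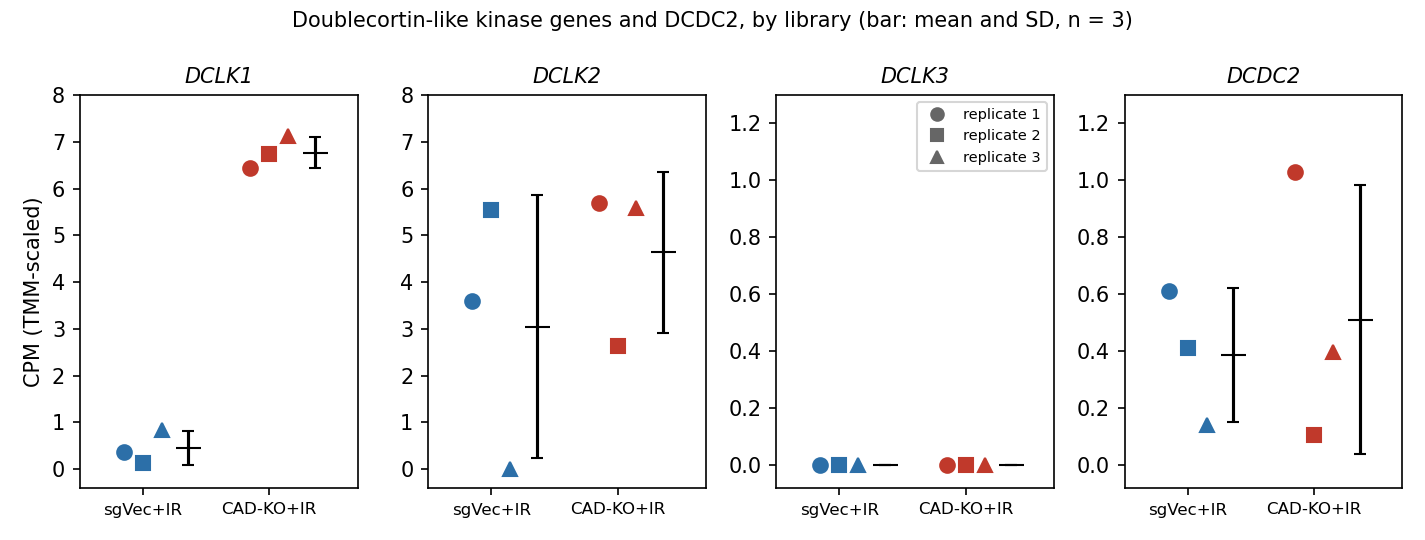
CPM of each member gene in each library, with sgVec+IR in blue and CAD-KO+IR in red, the marker shape giving the replicate and the black bar the mean and SD of 3 libraries. The DCLK1 groups lie apart at 0.137 to 0.846 and 6.45 to 7.11 CPM, the DCLK2 and DCDC2 groups overlap, DCLK3 is at 0 throughout, and the axes of DCLK3 and DCDC2 are finer.

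DCLK2, the kinase closest to DCLK1 in domain structure, was counted in 5 of the 6 libraries. It is on the forward strand of chromosome 4, from 150078274 to 150257457. Its counts were 105, 50 and 98 in CAD-KO+IR and 59, 81 and 0 in sgVec+IR. The groups overlapped, with CAD-KO+IR replicate 2 below both controls that had counts. The 0 was in the library that stood apart, where 46 genes had no count although each other library had at least 50.
DCLK2 averaged 4.63 ± 1.73 CPM in CAD-KO+IR and 3.05 ± 2.81 CPM in sgVec+IR (SD, n = 3 each). Its fitted log2 fold change was 0.58 ± 0.774 (SE). Without sgVec+IR replicate 3 it was 0.02 ± 0.378 (SE). It exceeded its standard error in 4 other fits, at 1.28 ± 0.882 without sgVec+IR replicate 2, 0.87 ± 0.860 without CAD-KO+IR replicate 2, 2.18 ± 1.52 in limma-voom and 0.36 ± 0.262 with sample weights.

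DCLK3, on the reverse strand of chromosome 3 from 36712422 to 36764349, had no count in any library. At this depth 3 counts over a group would have been 0.0545 CPM in CAD-KO+IR and 0.0664 CPM in sgVec+IR, and DCLK3 was not detectable above these limits.
DCDC2, the ciliary member without a kinase domain, lies on the reverse strand of chromosome 6 from 24171756 to 24358052. It was counted 19, 2 and 7 times in CAD-KO+IR and 10, 6 and 2 times in sgVec+IR. The groups overlapped, at 0.105 to 1.03 CPM in CAD-KO+IR and 0.141 to 0.611 CPM in sgVec+IR. The counts were too few for the gene to be tested in the main edgeR fit. DESeq2 gave DCDC2 a log2 fold change of 0.40 ± 1.15 (SE), and edgeR with no filter on low counts 0.36 ± 0.868. In edgeR without sgVec+IR replicate 3 it was −0.02 ± 0.841. From the summed counts, 28 against 18, the ratio per unit of depth was 1.28, with an exact 95% binomial interval from 0.682 to 2.45. CAD-KO+IR replicate 1 held 19 of the 28, and without it the ratio was 0.618 (0.245 to 1.45). Without sgVec+IR replicate 3 the ratio of DCDC2 was 0.986 (0.515 to 1.95), so its direction turned with single libraries. KAAG1 overlaps DCDC2 on the opposite strand and is not in the table, so its reads are uncertain where the counting ignored strand. A small nuclear RNA gene that is not in the table lies within DCLK2 on the same strand, and no annotated gene overlaps DCLK1 or DCLK3.

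Per length, the order of the members differed between the groups. CPM per kb of annotated exon (RPKM) was used, with exons of all transcripts merged. In CAD-KO+IR the libraries gave 0.572 to 1.24 RPKM for DCLK2, 0.448 to 0.495 for DCLK1, 0.0211 to 0.206 for DCDC2 and 0 for DCLK3, and these ranges did not overlap. In sgVec+IR the levels were 0.662 RPKM on average for DCLK2, 0.0776 for DCDC2, 0.0313 for DCLK1 and 0 for DCLK3. There the libraries of DCDC2 (0.0282 to 0.122 RPKM) and DCLK1 (0.00952 to 0.0588 RPKM) overlapped, and the 0 of DCLK2 in replicate 3 put its range across both. DCLK1 in CAD-KO+IR, at 0.471 RPKM, was above 9.998% of the genes tested, and in sgVec+IR it was above 0.0697% of them. The genes tested are those kept by a filter on low counts, which DCLK1 passed through its CAD-KO+IR libraries. Its low place in sgVec+IR follows in part from that filter, and nothing is read from it. The merged exons of DCLK1 span 14.4 kb, while these long and short coding transcripts have 8007 and 7592 exonic bases, so its level per length would be higher if only 1 of them was transcribed.

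The log2 fold change of DCLK1 ran from 3.51 to 4.70 over 15 alternative fits. These fits use the same counts, which chose DCLK1 and whose groups lie far apart. Its direction could therefore not turn, and the range is a description. For DCLK2 the log2 fold change ran from 0.02 to 2.18, with the lowest value from leaving out sgVec+IR replicate 3 and the highest from limma-voom.

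**Figure D2:**
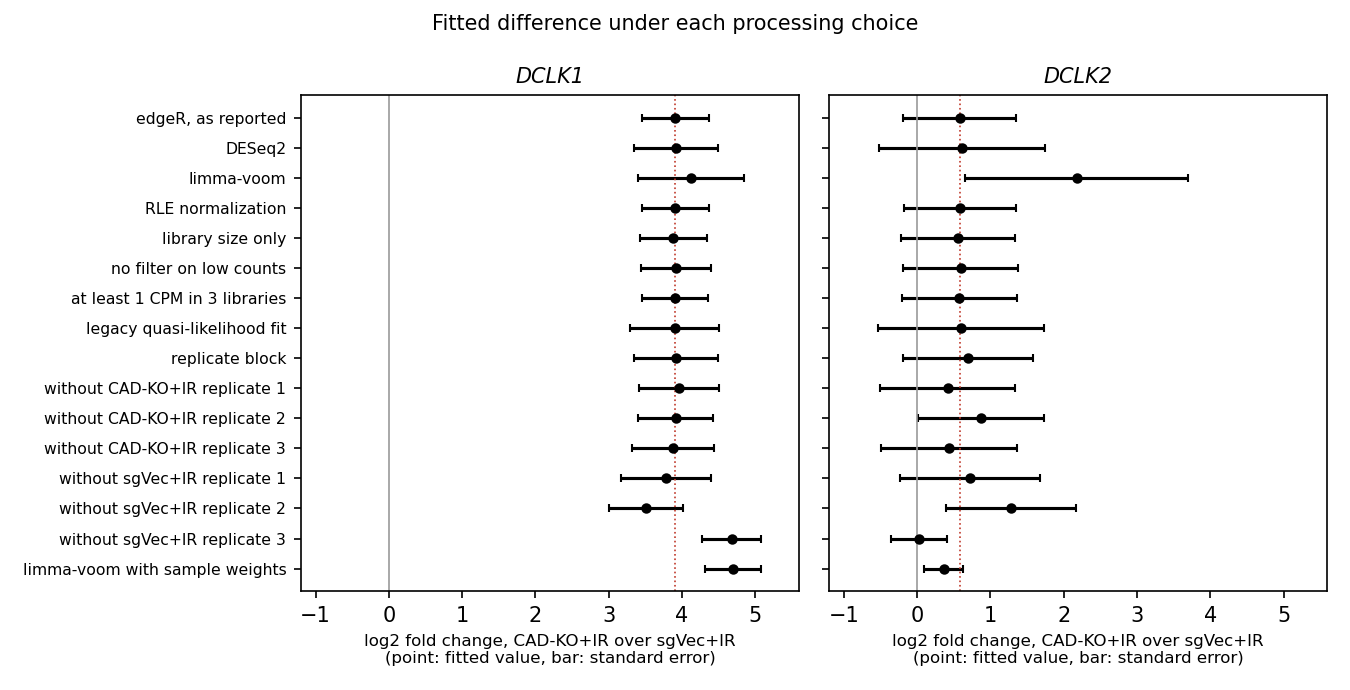
Fitted log2 fold change of DCLK1 and DCLK2, CAD-KO+IR over sgVec+IR, with standard errors as bars, in edgeR as reported (dotted red line) and under 15 other choices. All points of DCLK1 lie between 3.51 and 4.70, whereas those of DCLK2 reach from 0.02 to 2.18.

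None of the tested genes nearest to DCLK1 on chromosome 13 was called. Of the 10 tested genes nearest to it, 0 were called by edgeR, and 0 had an unadjusted p under 0.05 with a fold of at least 1.5. Limma-voom with sample weights also called 0 of them. In edgeR's quasi-likelihood test the adjusted p was 1 for each neighbour and for each tested list gene named below. Their log2 fold changes ran from −0.44 to 0.58 with a median of −0.08, beside −0.01 over all genes tested, and 4 were higher and 6 lower in CAD-KO+IR.
NBEA, which encodes the trafficking protein neurobeachin, lies 95.6 kb away and is the closest. It measured 13.3, 16.8 and 11.7 CPM in CAD-KO+IR and 7.46, 8.76 and 11.8 CPM in sgVec+IR. The groups overlapped through sgVec+IR replicate 3 alone, and the log2 fold change of NBEA was 0.58 ± 0.265 (SE, as for the genes below). RFC3, a subunit of the clamp loader of DNA replication and the next on that side, had −0.12 ± 0.415.
On the other side the nearest were RFXAP, a regulator of MHC class II genes, at 688 kb and SMAD9, a mediator of BMP signals, at 714 kb. Their log2 fold changes were −0.44 ± 0.577 and −0.15 ± 0.371. Without sgVec+IR replicate 3 the values of NBEA, RFC3, RFXAP and SMAD9 were 0.79, 0.49, 0.53 and 0.03. Between DCLK1 and RFXAP the table lists SOHLH2 with 12 counts and SERTM1 with 4 over the 6 libraries, and CCDC169, CCDC169-SOHLH2, SPART and CCNA1 with 0.

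**Figure D3:**
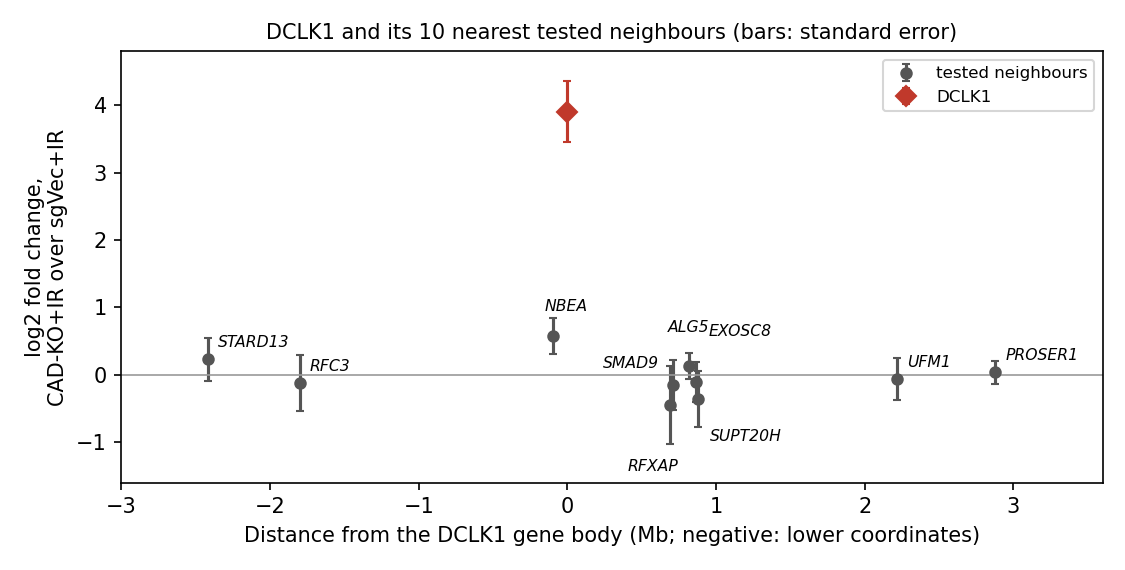
Log2 fold change, CAD-KO+IR over sgVec+IR, of DCLK1 (red) and of its 10 nearest tested neighbours (grey) against the distance from the DCLK1 gene body in Mb, with standard errors as bars. DCLK1 stands at 3.91 and its neighbours lie between −0.44 and 0.58.

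Genes related to DCLK1 by structure, function or use as markers were taken from 9 lists with 143 genes, of which 85 were tested. By edgeR 0 of the 85 were called, and 4 (4.71%) had an unadjusted p under 0.05 with a fold of at least 1.5, beside 2.18% of all genes tested. Limma-voom with sample weights called 9 of them (10.6%), PTGS1, EPHB3, ITGAM and VWF described below among them, beside 5.15% of all genes tested.
Of the 6 other genes with doublecortin domains, 2 were tested, and both groups overlapped in each. RP1L1, a gene of photoreceptors, had a log2 fold change of 0.72 ± 0.918, and DCDC1 of 0.37 ± 0.679. Without sgVec+IR replicate 3 these were 0.18 and −0.05. DCX itself had 1, 5 and 1 counts in CAD-KO+IR and 2, 0 and 0 in sgVec+IR. Each group thus had DCX at or near 0. DCDC2B, also untested, had 0, 5 and 2 counts in CAD-KO+IR and 9, 0 and 34 in sgVec+IR. RP1 had 8, 0 and 1 and 3, 1 and 0 in the same order, and DCDC2C had no count.
Among 21 CaM kinase-related genes 16 were tested, with a median log2 fold change of −0.09, and 6 were higher and 10 lower. The most abundant, CAMK2D, a subunit of CaM kinase II, was at 150 ± 20.7 CPM in CAD-KO+IR and 179 ± 60.0 CPM in sgVec+IR (SD, n = 3 each, log2 fold change −0.26). CAMKK2, an upstream kinase of CaM kinases and AMPK, had a log2 fold change of −0.18 ± 0.211. CAMK1 had 0.86 ± 0.473, with groups that overlapped. Limma-voom with sample weights called 1 gene of this list, CAMK1, as higher in CAD-KO+IR (0.98, adjusted p 0.0266).
Of 34 microtubule-associated and tubulin genes 30 were tested, with a median of 0.02, and 16 were higher and 14 lower. DYNC1H1, the heavy chain of cytoplasmic dynein, MAP4, a stabilizer of microtubules, and STMN1, which destabilizes them, were the most abundant. Their log2 fold changes were 0.11, 0.14 and −0.14.

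**Figure D4:**
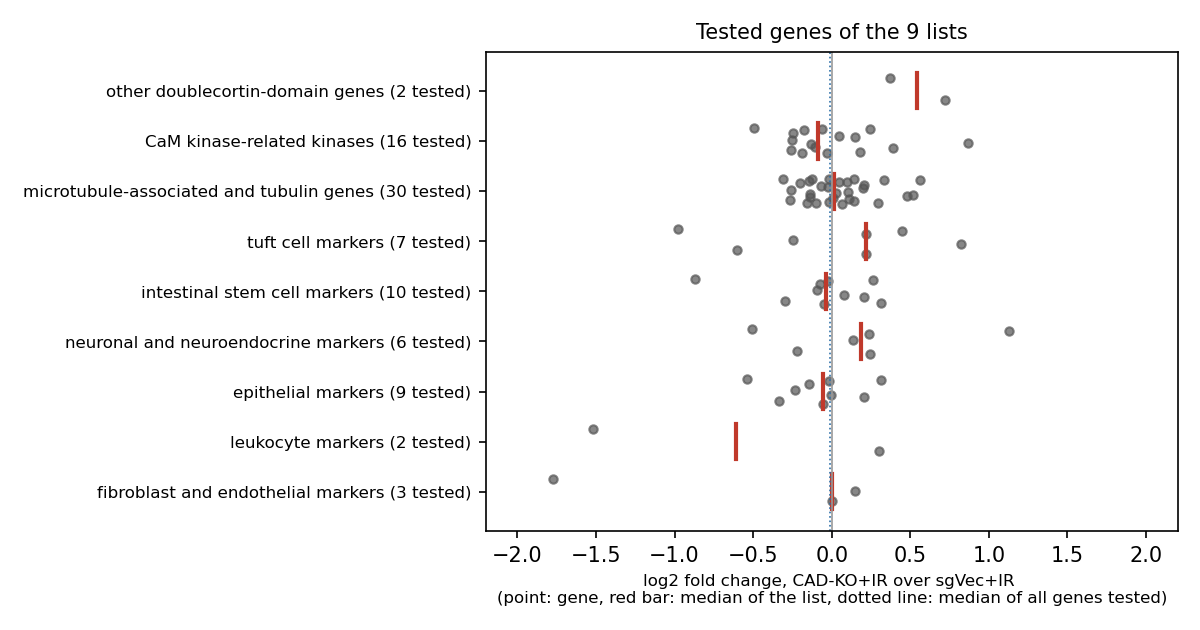
Log2 fold change, CAD-KO+IR over sgVec+IR, of each tested gene of the 9 lists (grey points), with the median of each list as a red bar and the median of all genes tested, −0.01, as a dotted line. Values run from −1.77 to 1.13, and 0 of the genes shown were called by edgeR.

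Tuft cell markers were largely at or near the counting limit. Of 24 markers 7 were tested, and 0 were called by edgeR, with a median log2 fold change of 0.22, and 4 were higher and 3 lower. Limma-voom with sample weights called 3 of the 7, PTGS1 (0.66) and AVIL (0.78), an actin-binding protein, as higher and PLCB2 (−1.57), a phospholipase of taste signalling, as lower in CAD-KO+IR. In edgeR AVIL had 0.22 ± 0.502 and PLCB2 −0.98 ± 0.738, and the groups overlapped in both. Summed over the list, the libraries held 44.0 to 48.5 CPM in CAD-KO+IR and 45.5 to 49.0 CPM in sgVec+IR. POU2F3, the transcription factor that defines tuft cells, had 3, 1 and 13 counts in CAD-KO+IR and 8, 9 and 0 in sgVec+IR. It was near the counting limit in both groups, and IL25 and HTR3E had no count in any library.
PTGS1, the cyclooxygenase COX-1, was the 1 tuft marker with an unadjusted p under 0.05 and a fold of at least 1.5. It measured 9.15, 10.4 and 10.3 CPM in CAD-KO+IR and 6.17, 6.64 and 4.02 CPM in sgVec+IR. The groups did not overlap, and its log2 fold change was 0.82 ± 0.258. ALOX5, a lipoxygenase of leukotriene synthesis, was lower in every CAD-KO+IR library, with a log2 fold change of −0.60 ± 0.261. IL17RB, a receptor chain for IL-25, had −0.25 ± 0.224.
Of 14 intestinal stem cell markers 10 were tested, with a median of −0.04. EPHB3, an ephrin receptor, was not called by edgeR, with a log2 fold change of −0.87 ± 0.253, and each of its CAD-KO+IR libraries was lower. CD44, an adhesion receptor, had −0.09 and SOX9, a transcription factor of the crypt, 0.32.
Of 15 neuronal and neuroendocrine markers 6 were tested, with a median of 0.19, and 4 were higher and 2 lower. SYT1, a synaptic calcium sensor and the most abundant of them, had −0.51 ± 0.214. It was at 55.6 ± 7.83 CPM in CAD-KO+IR and 79.0 ± 16.9 CPM in sgVec+IR (SD, n = 3 each). Limma-voom with sample weights called SNAP25 as higher in CAD-KO+IR (0.88, adjusted p 0.0262), and in edgeR SNAP25 had 0.24 ± 0.531. INSM1, GAP43 and NEFL had no count in any library. The list summed to 75.5 to 85.4 CPM in CAD-KO+IR and 97.1 to 117 CPM in sgVec+IR, most of it from SYT1.
Among markers of other cell types, ITGAM, an integrin of myeloid cells, had −1.52 ± 0.465 and VWF, an endothelial clotting factor, −1.77 ± 0.472, both lower in every CAD-KO+IR library. The 9 leukocyte markers summed to 1.48 to 2.45 CPM in CAD-KO+IR and 2.04 to 6.36 CPM in sgVec+IR, and the 9 fibroblast and endothelial markers to 26.6 to 41.0 and 18.0 to 52.7 CPM. The lowest control of both lists was sgVec+IR replicate 3, and without it the controls held 3.79 and 6.36 CPM of leukocyte and 46.9 and 52.7 CPM of fibroblast and endothelial markers, above every CAD-KO+IR library. In these controls ITGAM alone held 2.93 and 5.06 CPM, and COL1A1, a collagen gene, 42.9 and 47.8 CPM. Each sum therefore came mostly from a single gene. The groups of COL1A1 overlapped, with a log2 fold change of 0.0034 ± 0.496. The part of other cell types in the difference of DCLK1 was not tested.

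The tested genes most like DCLK1 in profile were PRKAA2, ZNF578, DNER, ASTN1 and ROBO1. Likeness was the root mean square difference of log2 CPM over the 6 libraries after each gene was centred on its own mean, and was 0.791 to 0.975 for these 5. All were higher in every CAD-KO+IR library, which a choice by this measure brings about, so their values are a description.
PRKAA2, a catalytic subunit of the kinase AMPK, was at 28.2 ± 4.75 CPM in CAD-KO+IR and 4.29 ± 0.764 CPM in sgVec+IR (SD, n = 3 each). DNER, a neuronal ligand of Notch receptors, had 69, 95 and 70 counts in CAD-KO+IR and 19, 4 and 5 in sgVec+IR. Its highest control was sgVec+IR replicate 1, whereas that of DCLK1 was replicate 3.
ASTN1, a gene of glial-guided migration of neurons, had 53, 35 and 58 counts in CAD-KO+IR and 0, 2 and 0 in sgVec+IR. ROBO1, a receptor of axon guidance, had 15, 14 and 16 and 1, 1 and 0 in the same order. ZNF578, a zinc finger gene, had 60, 78 and 58 and no count in sgVec+IR, so it was at least 53.5-fold higher when 3 counts over the control group are taken as the limit.
DCLK1 and 3 of these genes have long gene bodies. The body of DCLK1 is longer than 97.0% of the matched genes, and those of DNER (357 kb), ASTN1 (308 kb) and ROBO1 (1171 kb) are longer than 96.9%, 96.1% and 99.8%. The bodies of PRKAA2 (70.0 kb) and ZNF578 (58.6 kb) are longer than 74.8% and 70.6%. The other members lay at 91.4% for DCLK2, 91.8% for DCDC2 and 67.7% for DCLK3.

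**Figure D5:**
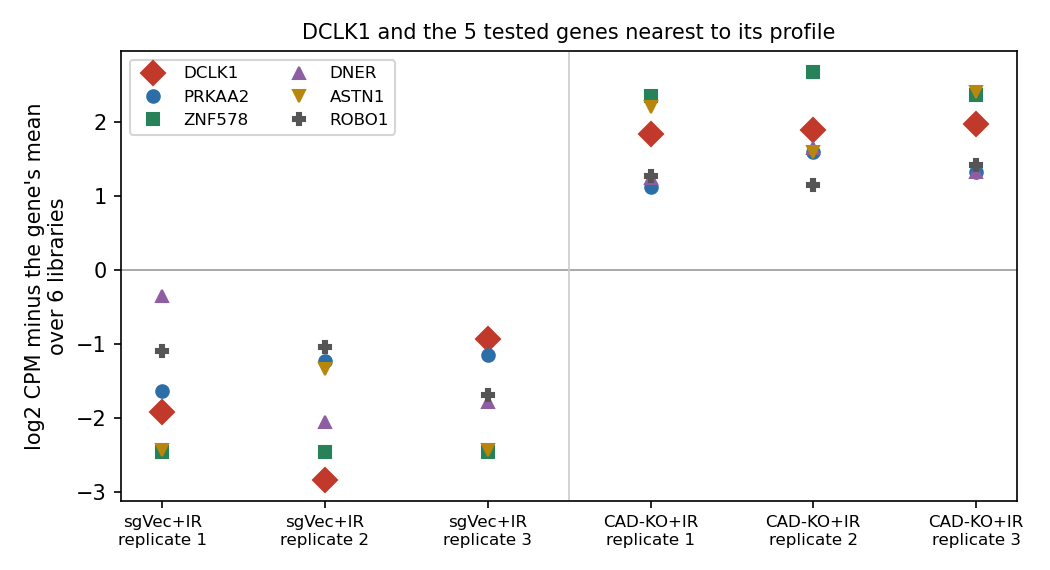
Log2 CPM of DCLK1 and of the 5 tested genes nearest to its profile, each minus its own mean over the 6 libraries, with 1 column of points for each library. All 6 genes lie below 0 in the sgVec+IR libraries and above 0 in the CAD-KO+IR libraries, as the choice by likeness brings about, and DCLK1 is lowest in sgVec+IR replicate 2.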

How the data were processed

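RNA-seq was analysed in 3 CAD-KO+IR and 3 sgVec+IR libraries of HCT116 cells. The deposited counts are whole reads per gene, which the authors made with featureCounts after fastp, and no scaling had been applied to them. Aligner, annotation and strand setting are not given in the sources used here. The submitters' processing notes name the mouse build mm10 and the labels list genomic DNA, while the paper describes RNA and the table holds human Ensembl identifiers, of which 19823 of 20020 matched GENCODE release 29 without the version. Positions are those of GENCODE on GRCh38 and are tied to the counts by gene identity only.

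Genes were kept by filterByExpr (minimum count 10, minimum total 15), scaled by TMM and compared with edgeR 4.0.16 (quasi-likelihood, legacy set to FALSE, R 4.3.3), with Benjamini-Hochberg adjustment over 12925 genes. DESeq2 1.42.0 and limma 3.58.1 were alternatives. The log2 CPM used a prior count of 2. Limits for undetected genes are 3 counts of a group's total. Limits and intervals cover counting error only, as PCR copies were not told apart by molecular identifiers. Scripts were tested on simulated data.

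The members and lists were chosen with earlier results of these data known. Named genes are the members, DFFB, the called genes, up to 5 called and up to 5 unadjusted genes and the 3 most abundant of each list (not all described), the 2 nearest tested neighbours on each side, and the 5 genes most like DCLK1. CDH1, AVIL, PLCB2, CAMK1, CDX1, PTPRC, DCX, DCDC2B, DCDC2C, RP1, POU2F3, IL25, HTR3E, INSM1, GAP43, NEFL and the untested neighbours were named after their values were seen. Sample weights and the DCDC2 ratios without single libraries were added after seeing the data.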

Additional observations from a re-analysis of the deposited data

How the results depend on the processing

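DCLK1 was chosen by this contrast and its groups lie far apart, so its direction could not turn with the processing. The call counts were sensitive to the processing. Higher and lower genes numbered 1 and 3 in edgeR, 20 and 21 in DESeq2, 0 and 0 in limma-voom (89 and 120 at an unadjusted p under 0.05), 99 and 183 in edgeR at an unadjusted p, and 212 and 454 in limma-voom with sample weights. With single libraries left out, higher genes ran from 0 to 11 and lower genes from 0 to 11, both highest without sgVec+IR replicate 3. PRKAA2 lost its call without any of the other 5 libraries, where unadjusted counts were 65 to 86 higher and 90 to 192 lower. The sample weights were 0.0404 for sgVec+IR replicate 3 and 0.154 for CAD-KO+IR replicate 2, the lowest of the 6. List genes called rose from 0 in edgeR to 4 at an unadjusted p and to 9 with sample weights, and neighbours of DCLK1 stayed at 0 in each alternative.

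Deviations of same-numbered libraries from their group means correlated at 0.468, −0.545 and −0.379. The largest correlation, 0.552, was between CAD-KO+IR replicate 2 and sgVec+IR replicate 3, the libraries with the lowest sample weights. The deviations follow these libraries, so they cannot show whether the replicate number pairs samples. Fitted as a block, the replicate number left 0 higher and 0 lower genes (62 and 82 unadjusted), with a DCLK1 log2 fold change of 3.92.

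Directions reversed for 9 tested genes that edgeR did not call, and the ratio of DCDC2, untested there, turned with single libraries as given above. SNAP25, CAMK1 and COL1A1 were not followed over all alternatives. Without sgVec+IR replicate 3 the log2 fold change was 0.49 for RFC3, 0.53 for RFXAP, 0.0325 for SMAD9, 0.0181 for CD44, 0.0523 for CAMK2D, −0.0533 for DCDC1 and −0.12 for KRT8. With sample weights it was 0.34 for RFC3, 0.34 for RFXAP and −0.40 for DCDC1. RFC3 also gave 0.0127 in limma-voom, 0.003 with the block and 0.03 without CAD-KO+IR replicate 1, SMAD9 0.03 without CAD-KO+IR replicate 1 or 3, and RP1L1 −0.0497 and AVIL −0.0409 without CAD-KO+IR replicate 3. AVIL gave −0.0049 without CAD-KO+IR replicate 1. The opposite ends over single libraries left out were −0.37 for RFC3, −0.79 for RFXAP, −0.56 for SMAD9, −0.18 for CD44 and −0.40 for CAMK2D. They were 1.21 for RP1L1, 0.62 for AVIL, 0.95 for DCDC1 and 0.43 for KRT8. The cause was not tested.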
